A study of Caenorhabditis elegans with 2 samples.

Results

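Single-gene promoter peaks were the sites of the tagged zinc-finger protein ZFR-1 whose summit lay 0 to 1000 bp upstream of the nearest annotated 5′ end of a protein-coding gene, where no gene on the opposite strand began within 1000 bp so as to share the same upstream region. Summits within 250 bp of a tRNA, snoRNA or snRNA gene were left out. Of the 1694 peaks that the authors kept for both replicates together, 418 met this rule (24.7%), and they lay upstream of 406 protein-coding genes. The rule used position and annotation only, and no measured signal. The remaining 1276 peaks included 199 at divergent promoters, where the summit lay upstream of a gene on each strand.

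The study was chromatin immunoprecipitation and sequencing (ChIP-seq) in whole Caenorhabditis elegans of strain RW12277, in which CRISPR had inserted a TY1::EGFP::3xFLAG tag at the gene Y95B8A.8 on chromosome I, the gene named zfr-1 in the annotation. Both samples were young adults at 63 hours, grown from starved first-stage larvae, and the labels call them biological replicates 1 and 2. The precipitation used an antibody against GFP. There was 1 group and no untagged, untreated or second-genotype sample among those used, so the measurements below compare the 2 replicates, classes of peak and stretches of sequence. Chromatin came from whole animals, so a peak does not say in which tissue the site was occupied.

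ZFR-1 carries the name of the vertebrate RNA-binding protein ZFR, which combines zinc fingers with a domain shared by nuclear factors that bind double-stranded RNA. In the worm, the annotated 5′ end of a gene is often not where transcription starts, because the first stretch of many transcripts is replaced by a spliced leader. Transcription then begins further upstream, at a promoter that usually lies in open chromatin between genes. Many neighbouring worm genes are also transcribed together as an operon from a single upstream promoter.

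The 10 windows below show what the strongest sites looked like. They are the members with the highest signal whose window overlaps no annotated exon. Windows from 1 of the 6 chromosomes, and windows that share a 20-base word with it, are not shown. Each is the 101 bp centred on the summit in assembly WBcel235, read 5′ to 3′ in the direction of the gene named. Capitals mark bases that belong to any of the 10 words of 6 bases that were most unevenly spread between summits and flanking sequence, on either strand. The counts of those words are given further on.
rpl-3: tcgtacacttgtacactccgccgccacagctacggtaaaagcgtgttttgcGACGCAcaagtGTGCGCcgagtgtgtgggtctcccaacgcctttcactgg
rpl-35: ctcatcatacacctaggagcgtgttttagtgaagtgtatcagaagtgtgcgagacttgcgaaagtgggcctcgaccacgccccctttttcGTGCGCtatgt
cdc-48.1: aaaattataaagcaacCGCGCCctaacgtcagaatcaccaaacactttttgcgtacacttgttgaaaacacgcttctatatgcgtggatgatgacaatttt
hcp-3: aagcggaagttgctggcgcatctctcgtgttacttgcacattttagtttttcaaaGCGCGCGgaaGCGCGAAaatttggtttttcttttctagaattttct
cpg-1: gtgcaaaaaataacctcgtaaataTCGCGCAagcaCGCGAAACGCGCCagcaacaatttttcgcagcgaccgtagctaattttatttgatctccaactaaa
cox-5A: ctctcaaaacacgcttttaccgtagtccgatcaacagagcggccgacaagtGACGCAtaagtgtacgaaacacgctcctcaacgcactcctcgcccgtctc
K12H4.5: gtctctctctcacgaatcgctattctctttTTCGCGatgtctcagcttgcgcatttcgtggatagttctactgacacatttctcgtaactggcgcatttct
sgo-1: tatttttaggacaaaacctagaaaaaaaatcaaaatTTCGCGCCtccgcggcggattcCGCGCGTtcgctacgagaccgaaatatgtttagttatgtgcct
nasp-2: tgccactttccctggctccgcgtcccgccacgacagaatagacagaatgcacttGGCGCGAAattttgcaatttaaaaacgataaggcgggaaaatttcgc
vig-1: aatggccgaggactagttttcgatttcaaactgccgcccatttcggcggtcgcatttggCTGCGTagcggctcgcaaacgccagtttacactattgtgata

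These 10 windows all lay between genes. They were chrIII:3867537-3867637 for rpl-3, chrIII:7854655-7854755 for rpl-35, chrII:10563518-10563618 for cdc-48.1, chrIII:9617064-9617164 for hcp-3 and chrIII:4489071-4489171 for cpg-1. The others were chrIII:12905157-12905257 for cox-5A, chrIII:8043938-8044038 for K12H4.5, chrIV:7796864-7796964 for sgo-1, chrV:13312417-13312517 for nasp-2 and chrII:1320556-1320656 for vig-1. The genes cdc-48.1, hcp-3, sgo-1 and nasp-2 are on the minus strand and the others on the plus strand. Each window holds at least 1 of the words in capitals, and these cover between 6 bases, as at rpl-35, and 20 bases, at cpg-1. The words were picked from summit windows that include these 10, so their presence here is no separate result.

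Signal is the value that the authors' peak caller gave each peak. It has no absolute unit and is ranked here only within a list. Values of the replicates are set side by side, but whether their lists share a scale is not known. The deposited list of both replicates together and the lists of the single replicates are on separate scales. In the list of both replicates the members had a median signal of 81.5, with quartiles of 68.1 and 109 and a range from 2.68 to 617. The highest member was that of rpl-3, which encodes a large-subunit ribosomal protein, and it had the highest signal of all 1694 peaks. Its summit lay 267 bp upstream of the 5′ end. Its signal of 617 in the list of both replicates came with 356 in replicate 1 and 271 in replicate 2, and it ranked 2 in each of those lists.

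The peak of rpl-35, another large-subunit protein, had a signal of 426, with 234 in replicate 1 and 198 in replicate 2. That of cdc-48.1, an ATPase that pulls ubiquitinated proteins out of complexes, had 416, with 201 and 210. The peak of mog-4, a splicing helicase known from germ-line sex determination, had 387, with 209 and 180. In each of these 3 the replicates lay close together, and both called the peak in their own thresholded list. The peak of eel-1, a HECT ubiquitin ligase, had 385, with 197 and 190 in the replicates. That of rpa-2, a subunit of the single-stranded DNA binding protein of replication, had 383, with 177 and 198. The gene kin-35 followed with 333, and 164 and 159, and the small-subunit ribosomal gene rps-24 with 325, and 161 and 163 in the replicates.

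Genes that handle histones and chromosomes were also among the first 20 members. The gene hcp-3 encodes the centromeric form of histone H3, and the summit 644 bp upstream of it had a signal of 315, with 150 in replicate 1 and 167 in replicate 2. For unc-85, which encodes a histone chaperone of the Asf1 family, the signal was 286, with 149 and 143. For nasp-2, named after another histone chaperone, it was 226, with 117 and 112. The peak of sgo-1, the shugoshin that guards cohesion at meiosis in other organisms, had 248, with 100 and 152, the higher value being in replicate 2. Replicate 1 was the higher one at cpg-1, a chitin-binding proteoglycan of the eggshell, with 154 against 103 and 269 in the list of both. The same held at wwp-1, a HECT ubiquitin ligase, with 151 against 88.3 and 245 in the list of both. The other members among the first 20 were mtcu-2 with a signal of 308, cox-5A with 260, K12H4.5 with 249, Y39B6A.43 with 248, cnk-1 with 237 and Y17G7B.20 with 232. All 20 were called in the thresholded lists of both replicates.

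The replicates' own thresholded lists, of 733 and 667 peaks, held far fewer of the members than the joint list. A thresholded peak of each replicate overlapped 116 members by at least 1 bp (27.8%, exact Clopper-Pearson 95% interval 23.5 to 32.3). A further 64 overlapped a peak of replicate 1 alone and 60 a peak of replicate 2 alone. The remaining 178 (42.6%) overlapped neither, and were called in the joint list only. The split followed the signal closely: the first 51 members by signal were in both thresholded lists without exception. In the unthresholded ranked lists, 384 members had a summit within 100 bp in both replicates, 27 in 1 replicate and 7 in neither.

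Over those 384 members, the signal of replicate 1 had a median of 44.3 and that of replicate 2 a median of 41.8. Replicate 1 was higher at 207 of them, so neither replicate was generally stronger on these scales. Spearman's rho between the replicates was 0.519 and Pearson's r on log2 signal 0.671, against 0.432 and 0.582 over the 1508 peaks of the whole list with both values. These are descriptions across sites of the same libraries, and sites are not replicates. The log2 ratio of replicate 1 to replicate 2 had a standard deviation of 0.56 over the members. In the scatter of the replicates, some strong peaks lie near the diagonal, such as cdc-48.1 with 201 and 210. Others lie off it, such as wwp-1 with 151 and 88.3. The spread was not computed by signal.

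**Figure D1:**
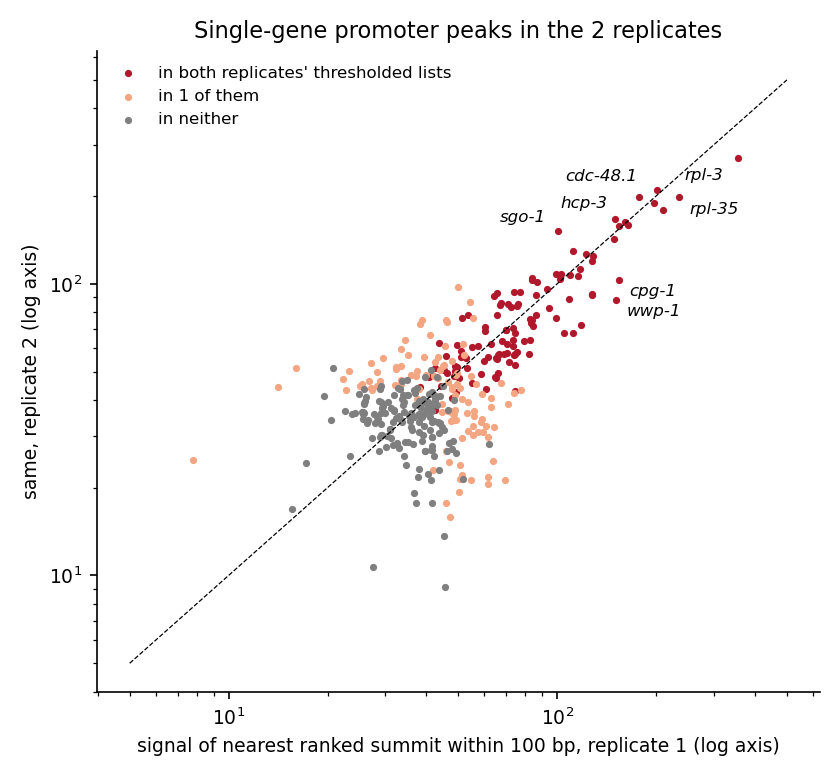
Signal of the nearest ranked summit within 100 bp in replicate 1 (horizontal, log axis) and replicate 2 (vertical, log axis), 1 point per member for the 384 members with a value in both, coloured by the replicates' own thresholded lists, with the line of equal values dashed. The first members by signal, such as rpl-3 at 356 and 271, sit close to the line, whereas members in neither list form a cloud around the medians of 44.3 and 41.8.

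A few members were shoulders of a stronger peak. Of the 418, 12 had a signal under 35, and for 10 of those another peak of the same list lay within 290 bp, the width of most peaks in it. The lowest was a peak of C25B8.8 on X, with a signal of 2.68 and a neighbouring peak 203 bp away with a signal of 79.8. At pro-1 the main peak had a signal of 121, with 64.7 and 48 in the replicates, and the shoulder 200 bp away had 8.31 and no ranked summit within 100 bp in either replicate. Such shoulders carried the maximal score of 1000 in some cases, so the score did not separate them. Leaving out the 12, a choice made after seeing the data, left 406 members.

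More than 1 member peak lay upstream of 11 genes. The gene pro-1 had 3, with signals of 121, 60.8 and 8.31 at 164, 928 and 364 bp. The ubiquitin ligase gene eel-1 had a second peak 796 bp upstream with a signal of 77.7, and 59.1 and 34.5 in the replicates. For lgg-1, the worm Atg8 protein of autophagosomes, the peaks at 178 and 817 bp had signals of 96.4 and 57.8. F26F12.2 had 82.4 at 324 bp and 51.5 at 863 bp. F41H10.3 had 72.1 at 933 bp and 48.9 at 731 bp. For lin-5, which positions the mitotic spindle, a peak of 92.8 at 237 bp stood beside one of 15.3 at 28 bp.

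Grouped by gene name into 29 lists, the share of genes with a member peak ran from 0 to 26.1%. Over all 19973 protein-coding genes, 2.03% had a member peak, and each list is read against that value. The lists were drawn up with earlier results of these data known, so their shares are descriptions without a test, and counting intervals are exact Clopper-Pearson 95% intervals. Of 69 genes of the germ line, oocyte and eggshell, 18 had one (26.1%, interval 16.3 to 38.1), the highest share of the 29 lists. Of 50 large-subunit ribosomal protein genes 9 did (18%, interval 8.58 to 31.4), and of 31 small-subunit genes 5 (16.1%, interval 5.45 to 33.7).

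**Figure D2:**
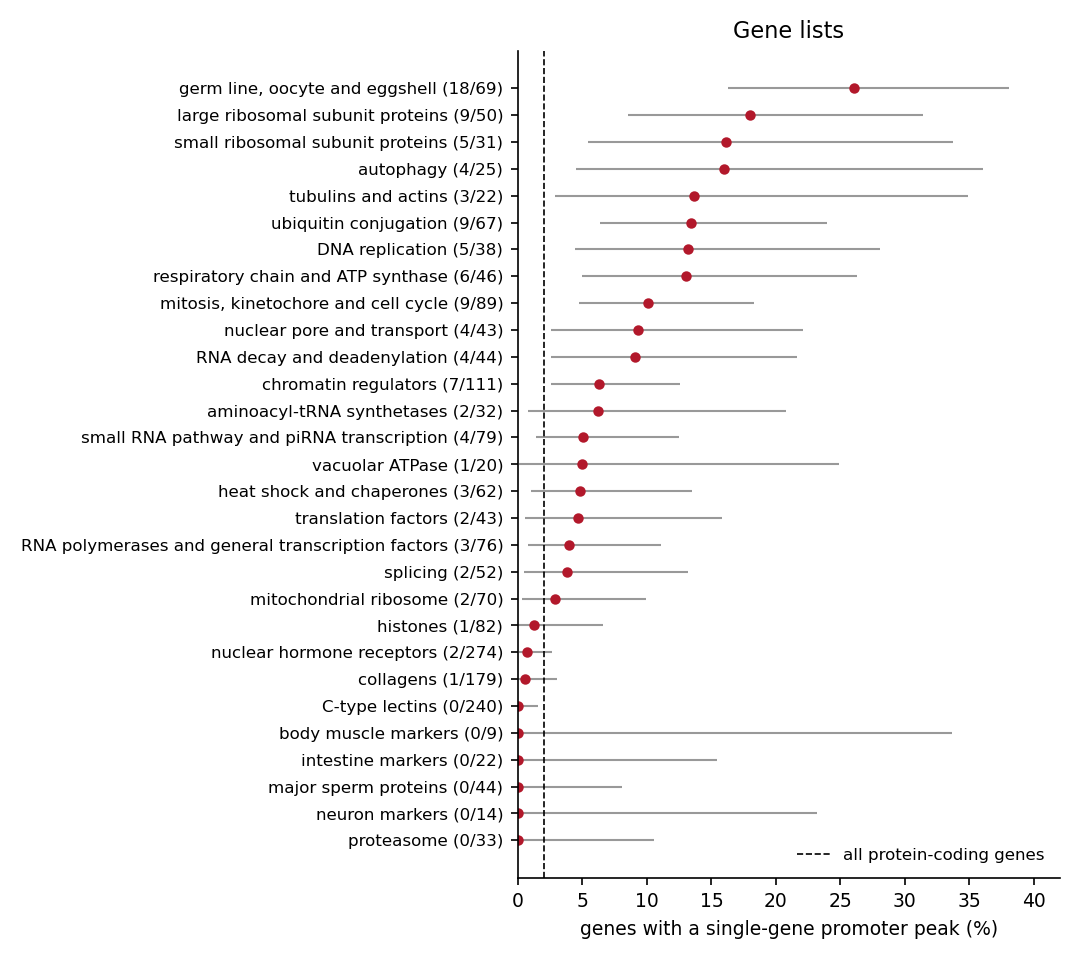
Share of the genes of each of 29 lists that had a single-gene promoter peak (horizontal axis, percent), with exact 95% intervals as bars, the counts beside each name and the 2.03% of all protein-coding genes dashed. The germ-line list is highest at 26.1%, and 6 lists at the bottom have no gene with such a peak.

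The eggshell of the worm is built at fertilisation from chitin and proteoglycans. Behind cpg-1 came egg-1, a receptor-like protein of the oocyte surface needed for fertilisation, with a signal of 157 and replicate values of 67.5 and 85.7. The permeability barrier gene perm-1 had 155, with 84.3 and 71.5. For egg-4, a pseudophosphatase of the oocyte-to-embryo transition, it was 146, with 64 and 91.1. The chitin synthase gene chs-1, the RNA-binding puf-3, the yolk receptor gene rme-2, the translational repressor gld-1 and the oocyte regulators oma-1 and oma-2 were further members of this list. Of the 18, 7 were in both replicates' thresholded lists and 9 in the top 25% of the joint list. The 1 of them on X was puf-9, listed for its name alone.

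Ribosomal protein genes divided into a few very strong sites and a modest remainder. After rpl-3 and rpl-35, the next large-subunit genes were rpl-14 with a signal of 101 and rpl-23 with 98.1. At rpl-23 the replicates differed, with 69.4 in replicate 1 and 21.2 in replicate 2. The other 5 lay between 62.6 and 89.2. In the small subunit, rps-24 was followed by rps-28 with 174, and by rps-21 with 90.9 and rps-7 with 56.5. Of these 14 ribosomal genes, 4 were in both replicates' thresholded lists, namely rpl-3, rpl-35, rps-24 and rps-28. Translation factors had 2 members of 43 genes, eif-3.C with 125 and eif-3.B with 70.5. The aminoacyl-tRNA synthetases had 2 of 32, fars-3 with 64.4 and vars-1 with 61.3.

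Energy metabolism was represented by 6 of 46 genes of the respiratory chain and ATP synthase (13.0%, interval 4.94 to 26.3). The cytochrome oxidase subunit gene cox-5A led them with replicate values of 128 and 125. The next was cox-5B, whose summit lay only 45 bp upstream, with a signal of 218 and 127 and 91.8 in the replicates. The genes cyc-1 and cyc-2.1, of cytochrome c1 and cytochrome c, had 113 and 104.35. These 4 were in both replicates' thresholded lists, whereas cox-4 with 83.3 and atp-4 with 75.1 were not. Of 70 mitochondrial ribosome genes 2 had a member peak (2.86%, interval 0.348 to 9.94), which is near the value for all genes.

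Of 38 DNA replication genes 5 had a member peak (13.2%, interval 4.41 to 28.1), with a median signal of 151. Besides rpa-2 they were mcm-2, a subunit of the replicative helicase, with 214 and replicate values of 103 and 108; pcn-1, the sliding clamp, with 151 and 65.4 and 93.0; mcm-4 with 109; and mcm-3AP, listed for its name alone, with 81.7. Of these 5, 4 were in both replicates' lists. Of 89 genes of mitosis, the kinetochore and the cell cycle, 9 had one (10.1%, interval 4.73 to 18.3). After hcp-3 the highest were the kinetochore gene hcp-1 and the cyclin gene cyb-2.2, each with a signal of 161, and the kinetochore gene knl-3 with 140. Polo-like kinases plk-1 and plk-2 had 81.6 and 68.5.

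Ubiquitin conjugation had 9 of 67 genes (13.4%, interval 6.33 to 24.0), led by cdc-48.1, eel-1 and wwp-1 and followed by the polyubiquitin gene ubq-1 with 137. None of 33 proteasome genes had a member peak, a count of 0 that allows a share of up to 9.09% and so does not set this list apart from the 2.03% of all genes. Of 44 genes of RNA decay and deadenylation 4 had one. They were ntl-11 with 191, the exonuclease gene xrn-2 with 136, ntl-2 with 93.3 and, listed for its name alone, crn-1 with 91.6. Splicing had 2 of 52, mog-4 and lsm-6. Small RNA genes had 4 of 79, led by snpc-3.4, of the family of snRNA-activating factors, with 182 and replicate values of 83.8 and 105. The nuclear pore and transport list had 4 of 43, npp-8 with 150, npp-18 with 113, imb-3 with 81.1 and ima-2 with 78.6.

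Chromatin regulators had 7 of 111 genes (6.31%, interval 2.57 to 12.6). The acetyltransferase gene cbp-1 led them with 192, and 83.9 and 103 in the replicates, at 868 bp from the 5′ end. The methyltransferase gene set-2 had 140, and the nucleosome remodelling genes swsn-7 and isw-1 had 82.1 and 78.4. Polymerase and general factor genes had 3 of 76, rpac-19 with 146, rpb-11 with 116 and mdt-22 with 66.7. Chaperones had 3 of 62, hsp-1 with 164, hsp-3 with 120 and dnj-9 with 103. Autophagy had 4 of 25, lgg-2 with 102, lgg-1, atg-9 with 88.5 and epg-7 with 69.8. Tubulins and actins had 3 of 22, act-2 with 99.1, tba-2 with 82.3 and tbb-2 with 76.5. The vacuolar ATPase list had vha-2 with 81.0, 1 gene of 20.

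The remaining lists had 2 members or fewer. Of 240 C-type lectin genes none had a member peak, which allows a share of up to 1.25%. A peak of clec-9 in the ranked list, with a signal of 134.6, met the rule of position but was not in the thresholded list. Nuclear hormone receptors had 2 of 274 genes (0.730%, interval 0.0885 to 2.61), nhr-48 with 81.4 and nhr-105 with 79.0. Collagens had 1 of 179 (interval 0.0141 to 3.07; col-63, 100.1) and histones 1 of 82 (interval 0.0309 to 6.61; his-37, 76.4). None of 44 major sperm protein genes, 22 intestine markers, 14 neuron markers or 9 body muscle markers had one. For those lists a count of 0 allows shares of up to 6.82%, 13.6%, 21.4% and 33.3%. For the C-type lectins the exact interval reached up to 1.53%, below the 2.03% of all genes, and this difference was not tested. The counts of the other lists in this paragraph could not be told apart from that 2.03%. The same held above for translation factors, aminoacyl-tRNA synthetases, splicing, small RNA genes, chaperones, polymerase and general factor genes and the vacuolar ATPase. Their intervals reached down to between 0.127% (vacuolar ATPase) and 1.40% (small RNA genes). The tagged gene zfr-1 was itself not a member. The summit nearest to it lay 1256 bp upstream of its 5′ end, with a signal of 86.6 and replicate values of 37.1 and 45.9.

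Members sat at a median of 287.5 bp upstream of the annotated 5′ end, with quartiles of 152 and 464 bp. The range was 3 bp at F54C8.7, with a signal of 58.2, to 988 bp at W03H9.1, with a signal of 71.0. The next nearest was F10E9.11 at 8 bp, with 84.6, and the next farthest dhs-8 at 977 bp, with 103. Just outside the limit lay fat-1 at 1018 bp with 75.8 and mstr-1 at 1030 bp with 133. The class from 250 to 500 bp held the most members, 145, followed by 114 from 100 to 250 bp and 68 under 100 bp. From 500 to 750 bp there were 58 and from 750 to 1000 bp 33.

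The values were lower at the most distant members. The median signal was 80.3 under 100 bp, 82.7 from 100 to 250 bp, 87.3 from 250 to 500 bp, 76.5 from 500 to 750 bp and 72.0 beyond. The share in both replicates' thresholded lists was 25%, 28.1%, 35.9%, 18.97% and 12.1% in the same order. The difference between distance classes was not tested. Strong exceptions at a distance were rpa-2 at 661 bp, hcp-3 at 644 bp and cbp-1 at 868 bp.

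**Figure D3:**
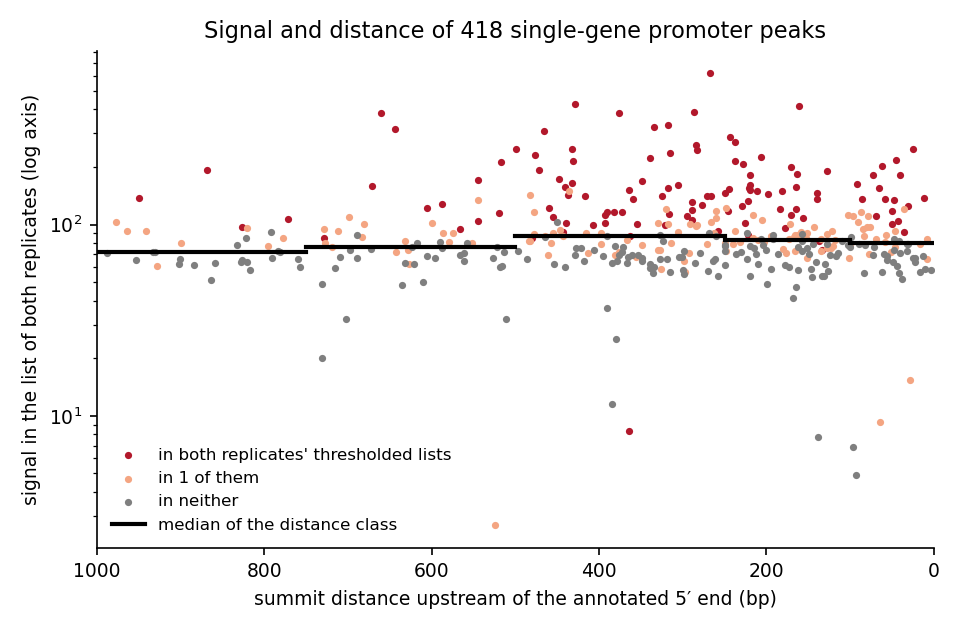
Summit distance upstream of the annotated 5′ end in bp (horizontal, the gene to the right) against signal in the list of both replicates (vertical, log axis) for the 418 members, coloured by the replicates' thresholded lists, with the median of each distance class as a black line. The medians lie between 72.0 and 87.3, and the scattered points under 35 at the bottom are the 12 weakest members.

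Most summits lay in sequence free of other genes. Of the 418, 349 were intergenic (83.5%), 23 in an intron of another protein-coding gene and 23 in a gene that does not code for protein. A further 19 lay in a 3′ UTR of another gene, 2 in a 5′ UTR and 2 in a coding exon. Among the first 20 members, mtcu-2 lay in an intron of let-268 and Y17G7B.20 in an intron of ash-2, so these summits belong to the body of another gene as well. For 281 members (67.2%) the next gene upstream was on the same strand, so the summit also lay inside that gene or downstream of it. A point 287 bp upstream of every protein-coding 5′ end gave the background for this: 15591 such points met the rule, and 67.2% of their upstream neighbours were on the same strand. The gap to the upstream gene was shorter at members, with a median of 699.5 bp against 1424 bp at those points.

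By chromosome, members were densest on I and III and sparsest on X. There were 33.0 members per 1000 protein-coding genes on I, 29.2 on III, 25.2 on II, 20.1 on IV, 13.0 on V and 10.3 on X. Counted per 1000 points that met the rule, the order was the same, from 45.1 on I to 16.7 on V and 11.2 on X. The 28 members on X made up 6.70% of all members, whereas X held 16.0% of the points. Of those 28, 3 were in both replicates' thresholded lists (10.7%), against 24.6% to 33.8% on the autosomes. Median signal differed little between chromosomes, from 78.8 on II to 85.6 on IV, with 80.2 on X. The highest members on X that belonged to a list were hsp-3, with 77.4 and 43.4 in the replicates, and puf-9, with 46.2 and 73.7.

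Peaks of divergent promoters were the other class upstream of genes, and members differed from them in all 3 shares tested. The test was Fisher's, exact and two-sided, and p-values were adjusted over 6 tests by the Benjamini-Hochberg method. Members were less often in both replicates' thresholded lists, 27.8% against 39.2% (adjusted p = 0.0106, Fisher's exact test). They were less often in the top 25% of the joint list by signal, 28.9% against 44.7% (adjusted p = 0.000536, Fisher's exact test). They were more often on X, 6.70% against 0.503%, the latter being 1 of 199 peaks (adjusted p = 0.000536, Fisher's exact test). Of the points 287 bp upstream of every gene, those with a divergent layout were also rarer on X, 5.29% against 16.0% of those that met the rule. With a distance limit of 500 bp, the differences in the first share and on X came to -2.44 and 3.46 percentage points (adjusted p = 0.670 and 0.104, Fisher's exact test). With peaks of score 1000 only, the differences in the first pair of shares came to -8.83 and -10.8 points (adjusted p = 0.109 and 0.0571, Fisher's exact test). The tests treat peaks as independent, which neighbouring peaks are not.

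In the lists of single replicates these differences did not pass the test. In the thresholded list of replicate 2 alone, members minus divergent peaks came to -9.54 percentage points in the top 25% (adjusted p = 0.197, Fisher's exact test) and to 2.86 on X (adjusted p = 0.265). In that of replicate 1 alone they were -6.38 and 4.74 points (adjusted p = 0.309 and 0.0577, Fisher's exact test), so the direction was that of the joint list. Those lists held 190 members or fewer.

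Compared with all other peaks, members were in both replicates' lists in 27.8% of cases against 21.9% (adjusted p = 0.0248, Fisher's exact test) and in the top 25% in 28.9% against 23.7% (adjusted p = 0.0373). They were on X in 6.70% against 10.2% (adjusted p = 0.0373, Fisher's exact test). In the single-replicate lists none of these passed, with adjusted p from 0.0577 to 0.264 by Fisher's exact test. With every transcript's 5′ end in place of the gene's, the first 2 differences shrank to 2.99 and 2.74 percentage points (adjusted p = 0.241 and 0.261, Fisher's exact test). With a distance limit of 500 bp, the 3 differences grew to 11.9, 10.5 and -6.60 points (adjusted p = 1.56e-05, 0.000104 and 0.000104, Fisher's exact test). With peaks of score 1000 only, they were 5.49, 6.22 and -2.19 points (adjusted p = 0.109, 0.0743 and 0.255, Fisher's exact test).

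**Figure D4:**
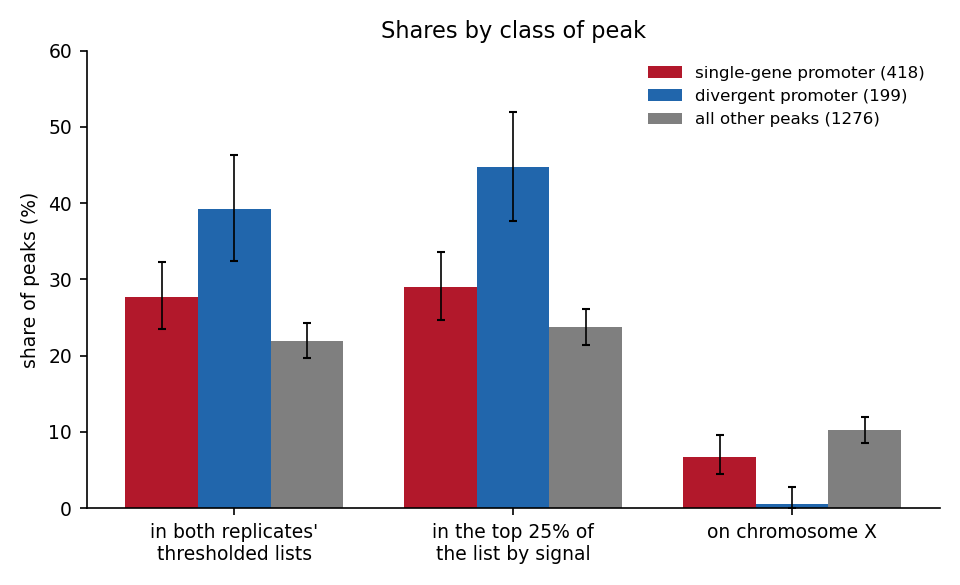
Share of peaks in percent (vertical axis from 0) that were in both replicates' thresholded lists, in the top 25% of the list by signal, and on X, for the 418 members, the 199 divergent promoter peaks and the 1276 other peaks, which include the divergent ones, with exact 95% intervals. Members lie between the other classes in the first pair of shares, at 27.8% and 28.9%, and at 6.70% on X.

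The sequence at the summits was set apart from its surroundings by base composition. Within 50 bp of the summit the median G+C content was 45.5%, against 32.7% in a window of the same width 250 bp further upstream and 34.7% in one 250 bp towards the gene. At the points 287 bp upstream of all protein-coding genes it was 33.7%. The mean number of CpG dinucleotides was 6.78 per window at the summit and 3.34 at 250 bp upstream. Both values were higher at stronger members: the 25% with the highest signal had a median G+C of 48.5% and 8.62 CpG per window, and the 25% with the lowest 43.6% and 5.31. Divergent promoter peaks had a median of 48.5% and 7.92 CpG, and all other peaks 45.5% and 5.92. The G+C content at the summit was thus not particular to the members. G+C content can also affect recovery in sequencing libraries, and its part in these values was not tested.

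**Figure D5:**
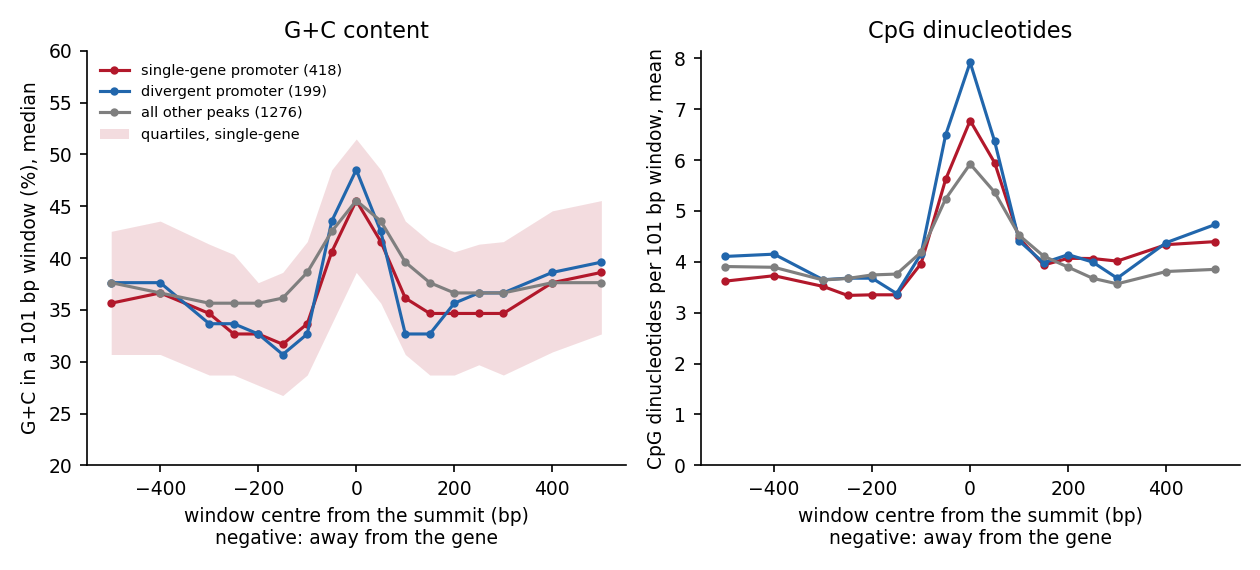
Median G+C content (left, percent) and mean number of CpG dinucleotides (right) in 101 bp windows by distance of the window centre from the summit in bp, negative away from the gene, for the members, divergent promoter peaks and all other peaks, with the quartiles of the members shaded. The members reach 45.5% G+C and 6.78 CpG at the summit from 32.7% and 3.34 at 250 bp upstream.

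Words of 6 bases were then compared between each summit window and the window 250 bp upstream of the same summit, with an exact two-sided McNemar test per word and Benjamini-Hochberg adjustment over 2080 words. Of these, 189 were present in more summit windows (9.09%) and 114 in fewer (5.48%). The words with more were mostly those with CpG. Of 604 words with a CpG, 145 were called higher (24.0%), and of 1476 without one, 44 (2.98%). Among words with 4 G or C, 54 of 234 with a CpG and 18 of 258 without one were called higher. Among those with 5, it was 56 of 136 and 3 of 56. The words with fewer were A and T rich, as AAATAT, which was in 50 summit windows and 116 flanks (adjusted p = 6.00e-07, exact McNemar test).

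The leading words overlapped each other, and the first 5 by p-value fell into a pair of groups. The first was runs of alternating C and G. ACGCGC was in 70 summit windows (16.7%) and 5 flanks (adjusted p = 1.05e-13, exact McNemar test), CGCGCC in 59 and 2 (adjusted p = 1.71e-12, exact McNemar test), and GCGCGA in 57 and 3 (adjusted p = 8.24e-12, exact McNemar test). Words of this group are among the capitals in the windows of cdc-48.1, hcp-3, cpg-1, sgo-1 and nasp-2 above. For comparison, the other 59 words made of the same letters as ACGCGC had a median of 14 windows. The second group was ACGCAG in 61 and 5 (adjusted p = 8.97e-12, exact McNemar test) and GACGCA in 59 and 5 (adjusted p = 2.60e-11, exact McNemar test). Both lie within a longer word, but that word was in only 32 summit windows, so other windows held the short words without it.

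That word was CTGCGTCTC, chosen after these counts were seen and searched on both strands without a test. It was in 32 of 418 summit windows (7.66%, exact 95% interval 5.30 to 10.6), in none of the windows 250 bp upstream, where a count of 0 allows a share of up to 0.718%, and in 4 of those 250 bp towards the gene. At the points upstream of all protein-coding genes it was in 0.711%. Of divergent promoter peaks 7.04% held it, and of all other peaks 3.76%. It ran in the direction of the gene in 14 matches and against it in 20, and its median distance from the summit was 13.5 bp. The 3 windows below are among the highest by signal that hold it and passed the same filters as the first set, with that word or its reverse complement in capitals.
sec-61.G: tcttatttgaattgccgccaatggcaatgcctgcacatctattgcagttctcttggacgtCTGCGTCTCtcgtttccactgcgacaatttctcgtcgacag
ntl-11: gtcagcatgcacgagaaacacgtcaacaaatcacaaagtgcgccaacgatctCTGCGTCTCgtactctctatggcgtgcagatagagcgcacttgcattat
Y73F8A.27: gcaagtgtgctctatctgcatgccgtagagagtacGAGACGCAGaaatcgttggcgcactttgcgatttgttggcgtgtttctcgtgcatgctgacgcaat

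The windows of ntl-11 and Y73F8A.27 lie near each other on chromosome IV and share runs of sequence, so they are not independent examples. The gene ntl-11 is on the minus strand and Y73F8A.27 on the plus strand, and both summits lie between their 5′ ends. Each summit is thus upstream of both genes, but more than 1000 bp from the farther 5′ end, and so met the rule. The peak of sec-61.G, a subunit of the translocon of the endoplasmic reticulum, had a signal of 206, with 109 in replicate 1 and 88.9 in replicate 2. For ntl-11 the replicates had 86.7 and 101. For Y73F8A.27 the signal was 149, with 67.2 and 84.6. As a whole, however, the members with CTGCGTCTC were not stronger than the rest, with a median signal of 72.7 in 32 members against 82.2 in the other 386. In steps of 25% of the members by signal from the highest down, 7.62%, 4.81%, 12.5% and 5.71% of members held it.

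GCGCG was more frequent at members with higher signal. This word, also chosen after the counts were seen and searched on both strands, was in 144 summit windows (34.4%, exact 95% interval 29.9 to 39.2), against 14 of the windows 250 bp upstream (3.35%) and 5.17% of points upstream of all genes. In steps of 25% of the members by signal it was in 57.1%, 40.4%, 23.1% and 17.1%, from the highest down. Members with it had a median signal of 99.4 and those without 76.0, and 66 of the 144 were in both replicates' thresholded lists, against 50 of the 274 without. Among divergent promoter peaks 47.7% held it.

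GCGCG was in 34.4% of all members. Among the gene lists, it was in 8 of the 9 ubiquitin conjugation members, 7 of 9 mitosis members and 4 of 5 DNA replication members. In the germ-line list 10 of 18 members held GCGCG. It was in 2 of 9 large-subunit and 1 of 5 small-subunit ribosomal members. None of the 3 polymerase and general factor, 2 splicing or 2 aminoacyl-tRNA synthetase members held it, nor did the 1 histone and 1 vacuolar ATPase member. CTGCGTCTC, at 7.66% of all members, was in 2 of 9 ubiquitin conjugation members, 1 of 9 large-subunit ribosomal members and none of the 18 germ-line members. These are counts in short lists and were not tested. Members with GCGCG had a median signal of 99.4 and those without 76.0, and the part of signal in these counts was not tested.

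Other words were counted in the same way. CGAGAC, outside the pair of groups above, was called higher, in 65 summit windows and 14 flanks (adjusted p = 4.32e-07, exact McNemar test). GGTCTCG, which holds it on the other strand, was in 45 summit windows (10.8%) and 7 upstream flanks, against 13.1% of divergent promoter peaks. TTCGCGC was in 35 summit windows (8.37%) and 3 upstream flanks. TACGGT, which reads ACCGTA on the other strand, was among the words called higher in the word test under every setting. It was in 40 summit windows (9.57%) and 9 of the upstream flanks, against 50 of 199 divergent promoter peaks (25.1%). TATAAA, the core of the TATA box, was in 25 summit windows (5.98%) and 54 upstream flanks (12.9%), and in 12.6% of points upstream of all genes. TTTCAG, the end of a worm intron or trans-splice site, was in 53 summit windows (12.7%) and in 108 of the windows 250 bp towards the gene (25.8%). The palindrome CACGTG was in 15 summit windows (3.59%) and 5 upstream flanks. GAGAGA was in 68 (16.3%) and 28 (6.70%). A match is a description of the letters and not evidence of a binding site, and none of these counts was tested beyond the fit over 6-base words.

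Some of the strongest members lay in sequence that occurs more than once in the genome. A 20-base word with more than 1 copy was in 179 of the 418 summit windows (42.8%), much like the 43.5% of windows 250 bp upstream. One with 10 or more copies was in 43 (10.3%), much like the 10.6% of divergent promoter peaks. Of all other peaks, which include those near tRNA, snoRNA and snRNA genes, 20.4% held one. In steps of 25% of the members by signal from the highest down, 17.1%, 9.62%, 5.77% and 8.57% held a word with 10 or more copies. Of the first 20 members 6 did. Reads from such copies may be placed at any of them, depending on how multiply mapped reads were treated, on which the sources used here are silent. Its part in the signal was not tested.

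Members also shared sequence with each other. A 20-base word was common to at least 2 members for 38 of them (9.09%), which formed 13 families, and 9 of the first 20 members belonged to one. The largest family had 6 members: eel-1 with both of its peaks, rps-24, Y62F5A.12, C26B2.7 and ttll-4, whose signals ran from 385 to 68.1 and whose shared words occurred up to 84 times in the genome. Another family of 6 was mtcu-2, unc-85, Y48G10A.2, vps-39, F44E7.4 and npp-18, with signals from 308 to 113. The windows of rpl-3 and cox-5A, on the same chromosome but far apart, shared the 21 bases ctacggtaaaagcgtgttttg, read in the direction of rpl-3. In cox-5A they run on the opposite strand relative to the gene. With 1 member kept per family, chosen after seeing the data, 393 members remained and 257 words were called, 166 of them higher, of which 164 were among the original 189.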

How the data were processed

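ChIP-seq peak lists of 2 samples in 1 group were used. The authors deposited for each replicate a ranked and a thresholded list, and for both replicates together a ranked list, a thresholded list and a conservative one, on assembly ce11 per the file headers. Each deposited peak has a score, which follows from the irreproducible discovery rate and runs up to 1000, and a signal, the authors' peak caller value. Neither the aligner nor the peak caller is given in the sources used here. Depth is unknown, so signals carry no interval, and their number of replicates is 2. Chromatin was sonicated to 200 to 800 bp per the labels. The control library was not analysed here.

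The joint thresholded list was matched to the Ensembl release 115 annotation of WBcel235, which names the genes, and the WBcel235 genome gave all sequences. Replicate lists were matched by an overlap of at least 1 bp, or for ranked values by the nearest summit within 100 bp. Shares carry exact Clopper-Pearson 95% intervals and, at a count of 0, the share that 3 counts would make. Both cover counting error only. Class shares were compared by two-sided Fisher's exact tests and 6-base words (with their reverse complements) by exact McNemar tests, at an adjusted p of 0.05. The p-values are over sites, which are not replicates. With 1 group of 2 samples no test over replicates exists. The word test was tested on simulated data. The tools were scipy 1.17.1, numpy 2.4.6 and pandas 2.3.3, with figures by matplotlib 3.10.9, all under Python 3.11.15.

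Named genes are those of the 20 members with the highest signal, up to 4 of each list by signal, 6 genes with several members, those at the distance limits and the tagged gene. Genes named beyond this, such as further list members, shoulders, shared-sequence families and those with CTGCGTCTC, were chosen after their values were seen. Members and lists were chosen with earlier results of these data known. Alternatives covered the 5′ ends, the distance and non-coding limits, the stringency of the list, single replicates, the overlap and the flank. The values of 1 member are not reported here.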

Additional observations from a re-analysis of the deposited data

Results flagged for a closer look

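The ranked list of both replicates held 73 peaks with a score of at least 830, the level of the thresholded list, that the thresholded list did not contain. Of these, 5 met the rule for single-gene promoter peaks and were therefore a signal outside the data described above. The first was upstream of clec-9, a C-type lectin gene, at 877 bp, with a signal of 134.6 and a score of 1000. A pair of them lay upstream of sre-47, a chemoreceptor gene, with signals of 64.9 and 56.2. The others were at dlst-1, with a signal of 57.8, and at fbxa-75, with a signal of 17.9. Why they were not in the thresholded list was not tested.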

How the results depend on the processing

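Of the 12 results, none changed direction under the alternatives run. The number of members stayed between 304 and 474 under every alternative but the single-replicate lists, which gave 185 to 190. In those lists the share on X was 3.78% to 4.74%, the median distance 264 to 284.5 bp and the words called 93 to 115. With a limit of 500 bp, the share on X was 4.21%, the median distance 221.5 bp and the share in both replicates 32.6%. With a limit of 2000 bp the median distance was 374.5 bp. With a score of 1000 only, the median distance was 268 bp and the share in both replicates 38.2%. With a reciprocal overlap of 50% that share was 23.2%. The flank 250 bp towards the gene gave 200 words. In every one of the 14 settings of the word test 41 words were called higher, and no called word changed direction.

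Differences between classes are given as members minus the other class, in percentage points. Against divergent promoters, those no longer past the threshold were -2.44 (both replicates) and 3.46 (X) with a limit of 500 bp, -8.83 (both replicates) and -10.8 (top 25%) with a score of 1000, and -9.54 to -6.38 (top 25%) and 2.86 to 4.74 (X) in single-replicate lists. Against all other peaks they were 2.99 (both replicates) and 2.74 (top 25%) with every transcript's 5′ end, 2.13 and 1.59 with a limit of 2000 bp, 5.49, 6.22 and -2.19 (X) with a score of 1000, -3.05 (X) with peaks near non-coding genes kept and -2.88 (X) in the conservative list. In single-replicate lists they were 7.24 to 8.74 (top 25%) and -4.10 to -2.86 (X). The causes were not tested. The share in both replicates has no value in a single-replicate list. No paired analysis was possible because there is only 1 group. Depth was unknown, so the limit it sets on weak members could not be given.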
